A study of Mus musculus with 18 samples.

Results

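The genes described here encode the glycine cleavage system (Gldc, Amt and Gcsh), the sulfurtransferases and the dioxygenase of mitochondrial sulfide handling (Tst, Mpst and Ethe1) and the enzymes that make and oxidise cysteine (Cbs, Cth and Cdo1). They were chosen by symbol, and all 9 were found among the 55469 genes of the tables, each as a single entry. RNA was prepared from ventral and lateral prostate lobes of male mice aged 10 or 30 weeks, given by the labels as strain C56NL/6N. The genotypes were wild type (WT, ELAC2+/+), knockout (KO, ELAC2 Pb-Cre) and ELAC2 Ala537Thr (A537T), with 3 libraries in each of 6 groups and no further allele or treatment named for these 18 libraries. In KO, Cre is driven by a probasin promoter, which is active in prostate epithelium, so other cells of the lobes keep the gene. At 10 weeks the WT libraries were 10AF to 12AF, those of KO 13AF to 15AF and those of A537T 16AF to 18AF. At 30 weeks WT was 1AF to 3AF, KO was 4AF to 6AF and A537T was 7AF to 9AF. The WT libraries of an age served both lines, so the comparisons of KO and of A537T share their controls.

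ELAC2 is the ribonuclease that trims the 3′ ends of precursor tRNAs in the nucleus and in mitochondria. The glycine cleavage system is a mitochondrial complex in which GLDC, the P-protein, removes the carboxyl group of glycine, GCSH, the lipoylated H-protein, carries the remaining aminomethyl group, and AMT, the T-protein, releases ammonia and passes a carbon unit to tetrahydrofolate. DLD then reoxidises the lipoyl arm. Cysteine is made from homocysteine by CBS and CTH and is oxidised to cysteine sulfinate by CDO1. Sulfide is oxidised in mitochondria to persulfide, which ETHE1 converts to sulfite, while TST (rhodanese) and MPST move sulfane sulfur between thiosulfate, mercaptopyruvate, glutathione and cyanide.

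The study set mRNAs of these tissues beside microRNAs, Tst beside miR-10a-5p and a group of mRNAs with Gldc beside several microRNAs. Its text does not say which of these microRNAs goes with Gldc. Of them miR-338-3p is shown here, since the others were not found by name in the sequences used and were not searched. Cdo1 was also considered by the study beside microRNAs, in TRAMP mice, which were not analysed here. These 2 microRNAs are shown with the site that pairs with their seed, because such sites are what would link a microRNA with an mRNA. The mature sequences are those of RefSeq on GRCm38, with bases 2 to 8, the seed, in capitals.
mmu-miR-10a-5p: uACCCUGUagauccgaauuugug
mmu-miR-338-3p: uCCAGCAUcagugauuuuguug
The sites below were read from the GRCm38 sequence and the GENCODE gene models, on the strand of each gene, with the 7 bases complementary to the seed in capitals.
Tst, miR-10a-5p site, chr15:78399625-78399631, minus strand: ctacggatattgACAGGGTtttagaattgc
Gldc, miR-338-3p site, chr19:30098660-30098666, minus strand: cagtcagagcctATGCTGGgaattcaatag
Amt, miR-10a-5p site, chr9:108301732-108301738, plus strand: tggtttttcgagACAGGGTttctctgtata
Cbs, miR-10a-5p site, chr17:31609137-31609143, minus strand: ggttttttcgagACAGGGTtttctgtgtag
The Tst site lay in a 3′ untranslated region of 176 bases and the Gldc site in one of 520 bases. Amt and Cbs, which were not chosen for it, held the same miR-10a-5p heptamer. Of the 21037 genes with an annotated 3′ untranslated region, 12.488% held the miR-10a-5p heptamer and 13.067% the miR-338-3p heptamer, so over all genes a match is common. The median length of these regions was 960 bases, longer than those of Tst and Gldc. No share was taken for regions as short as theirs, so how common a match is at that length was not tested. No microRNA level was analysed here.

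Gldc lies on the minus strand of chromosome 19 of GRCm38, from 30098447 to 30175429, and its coding transcript has 25 exons and encodes 1025 residues. Tst lies on the minus strand of chromosome 15, from 78399556 to 78405907, and Mpst on the plus strand from 78406416 to 78414013, so that the starts of these sulfurtransferase genes are 508 bases apart in opposite directions. Both encode 297 residues. Amt, Gcsh and Cbs encode 403, 170 and 561 residues. A predicted transcript, Gm43314, overlaps Cth on the same strand, and reads of these 2 genes may not be separable, while the genes that overlap Gldc and Ethe1 lie on the opposite strand, which the authors' counting kept apart.

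Libraries held 6569642 to 11225281 recovered reads (median 8586877). The targeted gene, Elac2, had normalized counts of 111 to 119 in KO against 124 to 166 in WT at 10 weeks and of 98.4 to 151 against 150 to 194 at 30 weeks, and these counts cover transcripts that lack the deleted part as well as intact ones. A list of 8 prostate luminal genes took 0.458 to 11.8% of reads, and none of its genes was at 0 throughout a group. Its share differed between groups. WT libraries of 10 weeks held 3.23 to 10.9% (median 10.6%), against 0.458 to 3.35% for KO (median 2.22%), while A537T held 6.75 to 8.92%. The lowest WT library, 10AF, lay just below the highest KO library, 13AF. Among libraries of 30 weeks WT held 6.15 to 11.1%, KO 3.79 to 9.73% and A537T 3.07 to 11.8%. The part of this share in the comparisons was not tested. Reads of 8 seminal vesicle genes took 1.73 to 10.3% in 9 libraries (10AF, 11AF, 13AF to 15AF, 4AF, 6AF, 7AF and 9AF), 0.0374 to 0.191% in the 3 A537T libraries of 10 weeks, and under 0.001% in the other 6, among them all 3 WT libraries of 30 weeks. Reads of 12 skeletal muscle genes took 1.48 to 5.16% in the WT libraries of 10 weeks. They took 0.0232 to 0.826% in those of KO, 0.495 to 1.60% in those of A537T, and no more than 0.0347% in any library of 30 weeks. In tissue of mixed composition, fewer cells of a type and less RNA per cell cannot be told apart.

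To ask whether these genes changed with Elac2, the 3 libraries of a mutant group were set against the 3 WT libraries in the same table. limma was run on log2(normalized count + 1), with Benjamini-Hochberg adjustment over all genes whose normalized counts averaged 10 or more. All 9 genes passed this minimum in all 4 tables. None of them passed an adjusted p under 0.05 in any comparison, and neither did any other gene, so percent called was 0 throughout. The adjusted p values given below are from limma unless another tool is named. At an unadjusted p under 0.05, limma gave 2 of the 9 genes in KO at 10 weeks (19.4% of all genes tested), 1 in A537T at 10 weeks (6.43%), 2 in KO at 30 weeks (11%) and 3 in A537T of that age (13.6%). The mutant and WT values did not overlap for 2 of the 9 in KO at 10 weeks (26% of all genes), 0 in A537T of that age (11.9%), 3 in KO at 30 weeks (16.3%) and 2 in A537T at 30 weeks (18.6%). On the recovered reads edgeR called 0 of the 9 in each comparison, with 1, 0, 3 and 3 at an unadjusted p under 0.05 in the same order. Over all genes tested these were 2806 of 15089, 1100 of 15131, 1752 of 14729 and 2167 of 14789. DESeq2 on these reads called 0 at 10 weeks in either line, 2 in KO at 30 weeks (Gldc and Cdo1) and 3 in A537T at 30 weeks (Gldc, Tst and Cdo1). In all it called 715, 90, 285 and 476 of the same genes tested.

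**Figure D1:**
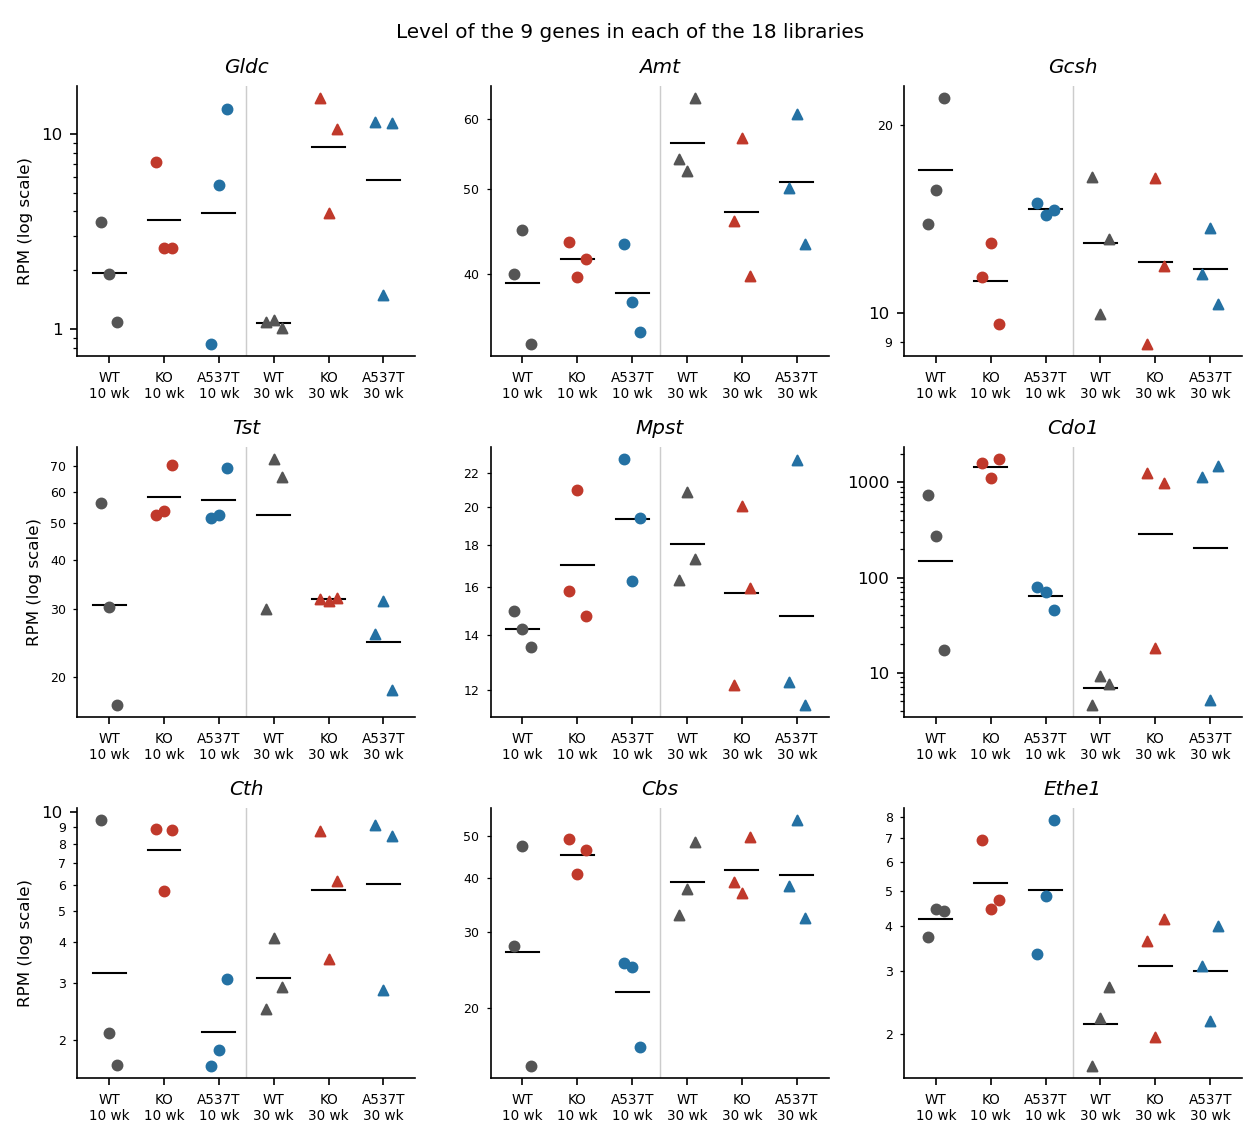
RPM (reads of a gene, scaled to 1000000 reads per library) of the 9 genes in each library, on a log axis that differs between panels, with circles for 10 weeks, triangles for 30 weeks and a bar at the geometric mean of the 3 libraries of a group. Gldc was near 1 RPM in the 3 WT libraries of 30 weeks and above 10 in 4 of the 6 mutant libraries of that age, and Cdo1 covered 4.58 to 1750 RPM.

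Gldc, the glycine decarboxylase, was the rarest of the glycine cleavage mRNAs and had the lowest unadjusted p of the 9 genes. At 30 weeks its normalized count was 9.65, 10.4 and 8.91 in WT and 145, 32.3 and 100.03 in KO libraries 4AF, 5AF and 6AF. All KO libraries were above all WT libraries, and 5AF was the lowest of the 3. The log2 fold change was 2.89 (SE 0.54, unadjusted p = 0.000998, adjusted p = 0.300 from limma). Left out singly, the libraries moved it from 2.45 without 4AF to 3.52 without 5AF, where it passed (adjusted p = 0.00212), and DESeq2 gave 3.27 (adjusted p = 4.4e-05). Without 4AF and 6AF, the KO libraries with seminal vesicle reads, the remaining KO library gave a log2 fold change of 1.65 (adjusted p = 0.873, with the spread taken from the WT libraries), and over the 14 alternatives the adjusted p ran from 4.4e-05 to 0.873.

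In A537T at 30 weeks Gldc had a normalized count of 101 in 7AF, 12.5 in 8AF and 106 in 9AF, against 9.62, 10.3 and 8.91 in WT. The groups did not overlap, but 8AF lay within 2.2 counts of the highest WT library. The log2 fold change was 2.32 (SE 0.78, adjusted p = 0.305). Without 8AF it was 3.31 (adjusted p = 0.00194), without both 7AF and 9AF it was 0.35 (adjusted p = 0.983), and DESeq2 gave 2.94 (adjusted p = 0.00510), within a range of 0.00194 to 0.983 over the 14 alternatives. In both lines the 2 libraries with the highest Gldc were those with 6.32 to 9.17% of seminal vesicle reads, and the part of those reads in the result was not tested. Library 5AF held 7.13e-05% of such reads and its Gldc level of 3.92 RPM (reads scaled to 1000000 per library) was above the 1.01 to 1.11 RPM of the WT libraries of 30 weeks.

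At 10 weeks Gldc was 27.4, 15.8 and 11.2 in WT against 53.3, 21.1 and 19.4 in KO, with overlapping groups (log2 fold change 0.69, SE 0.51, adjusted p = 0.458). A537T libraries 16AF, 17AF and 18AF had 7.45, 47.6 and 105 against 31.1, 17.3 and 11.7 in WT (0.85, SE 0.89, adjusted p = 0.838), so A537T held both the lowest and the highest Gldc of that table. Without 18AF this fold change was 0.05 and without 16AF it was 1.88. The high values of 17AF and 18AF came with 0.136 and 0.0374% of seminal vesicle reads, and 16AF, with 0.191%, was the lowest. In RPM, the geometric mean order shown in the plot of levels ran from WT at 30 weeks upward through WT, KO and A537T at 10 weeks to A537T and KO at 30 weeks. Libraries of neighbouring groups in this order overlapped at every step, the first included, where 12AF at 1.08 RPM fell within the range of WT at 30 weeks. Tables of the 2 ages were normalized separately, and these levels across ages were not tested.

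Amt, the aminomethyltransferase, was the most abundant of the 3 and the least variable. At 30 weeks its normalized count was 485, 495 and 564 in WT and 437, 471 and 377 in KO, and every KO library was below every WT library (log2 fold change -0.27, SE 0.12, adjusted p = 0.478). In A537T it was 439, 514 and 403 against 475, 484 and 553 (-0.16, SE 0.13, adjusted p = 0.587), and the groups overlapped. At 10 weeks Amt was 312 to 373 in WT and 312 to 323 in KO, a log2 fold change of -0.09, or of 0.12 once libraries were scaled to equal totals. In A537T it was -0.21 (adjusted p = 0.785). Such scaling moved the median over all genes tested at this age from -0.01 to 0.20 for KO, and for A537T from 0.01 to 0.15.

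Gcsh, the lipoyl carrier, did not overlap between KO and WT at 10 weeks. It had normalized counts of 113, 136 and 232 in WT and 85.1, 105 and 72.0 in KO (log2 fold change -0.81, SE 0.30, adjusted p = 0.221). The highest WT value was that of 12AF, the library with the most skeletal muscle reads, at 5.16%. Without 12AF the change was -0.51, and with 12AF as the remaining WT library it was -1.41. The adjusted p reached 0.530 over 15 alternatives. The 2 KO libraries with 0.0232 and 0.0233% of muscle reads held 72.0 and 85.1, and 14AF, with 0.826%, held 105. The part of muscle RNA in this difference was not tested. In A537T at 10 weeks the log2 fold change of Gcsh was -0.33. At 30 weeks it was -0.10 in KO and -0.16 in A537T, with overlapping groups in each case.

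Per length, the 3 glycine cleavage mRNAs were unequal in level. In WT at 30 weeks Amt had 23.3 ± 2.43 RPKM (RPM per kilobase of exon; SD, n = 3), Gcsh 8.37 ± 2.08 and Gldc 0.175 ± 0.00835. In single WT libraries of that age the ratio of Amt to Gldc on this scale was 118 to 157. It was 7.52 in 4AF, 9.42 in 6AF, 10.8 in 7AF and 9.48 in 9AF, but 36.4 in 5AF and 102 in 8AF. At 10 weeks the WT libraries spanned 28.2 to 76.7, the KO libraries 15.2 to 40.1 and the A537T libraries 6.42 to 130.0.

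**Figure D2:**
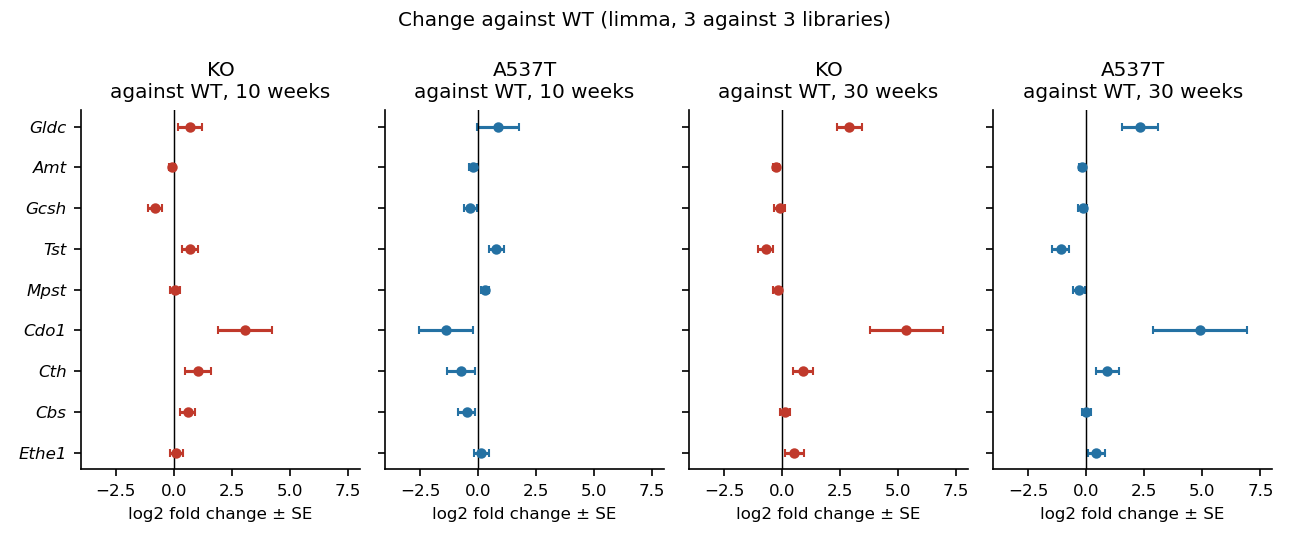
Log2 fold change of each gene against WT with its standard error from limma, 3 against 3 libraries, in 1 panel per comparison on a common axis. Gldc was at 2.89 and 2.32 in the panels of 30 weeks, Tst was above 0 at 10 weeks and below 0 at 30 weeks in both lines, and the intervals of Cdo1 were the widest.

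Tst, the thiosulfate sulfurtransferase, was lower in both lines at 30 weeks and higher in both at 10 weeks by its fold change, with no comparison past the threshold. At 30 weeks its normalized count was 267, 682 and 579 in WT libraries 1AF, 2AF and 3AF and 303, 259 and 302 in KO. One WT library, 1AF, lay within the range of KO. The log2 fold change was -0.72 (SE 0.33, adjusted p = 0.478), and it was -1.13 without 1AF. In A537T Tst was 227, 265.1 and 173 against 265.5, 677 and 577 in WT, so that 1AF and 8AF differed by less than 1 count while the groups just failed to overlap. The log2 fold change was -1.10 (SE 0.35, adjusted p = 0.298), and DESeq2 gave -1.18 (adjusted p = 0.0245, from a range of 0.0245 to 0.965 over 15 alternatives).

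At 10 weeks Tst was 460, 263 and 180 in WT libraries 10AF, 11AF and 12AF and 389, 437 and 529 in KO. Library 10AF was inside the KO range and the other WT libraries were below it (log2 fold change 0.68, SE 0.33, adjusted p = 0.302). In A537T it was 460, 454 and 543 against 468, 263 and 180 (0.78, SE 0.33, unadjusted p = 0.0468, adjusted p = 0.746). Without 10AF, Tst passed in KO, with a log2 fold change of 1.04 (adjusted p = 0.0284), and had 1.15 in A537T (adjusted p = 0.0745). With 12AF as the remaining WT library the log2 fold change was 1.31 in KO and 1.42 in the A537T line. The adjusted p reached 0.615 in KO and 0.991 in A537T over 15 alternatives.

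The level of Tst separated the 18 libraries in a way that cut across genotype. Pbsn encodes probasin, the secretory protein of prostate epithelium whose promoter drives Cre in KO. In the 9 libraries with more than 1500 RPM of Pbsn, Tst had 51.5 to 72.8 RPM, and in the other 9 it had 16.99 to 31.9. This limit was not among the planned settings. It lies in a gap of the Pbsn values, between 1252 RPM in 11AF and 1712 in 10AF. The first 9 were 10AF, 2AF and 3AF of WT and all KO and A537T libraries of 10 weeks, and the other 9 were 11AF, 12AF and 1AF of WT and all mutant libraries of 30 weeks. Tgm4, a prostate transglutaminase that was chosen after its values were seen, had 3839 to 6769 RPM in the first 9 and 1.77 to 2578 in the others. Mpst overlapped between these libraries (14.8 to 22.9 against 11.5 to 22.8), and so did Amt (34.3 to 63.4 against 33.2 to 60.8). Pbsn is 1 of the 8 genes of the prostate luminal list, but the share of that list did not split the libraries in this way. It was 0.458 to 8.92% of reads in the first 9 and 3.07 to 11.8% in the others. The part of the secretory epithelium, or of the mix of lobes in each library, in the change of Tst was not tested.

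**Figure D3:**
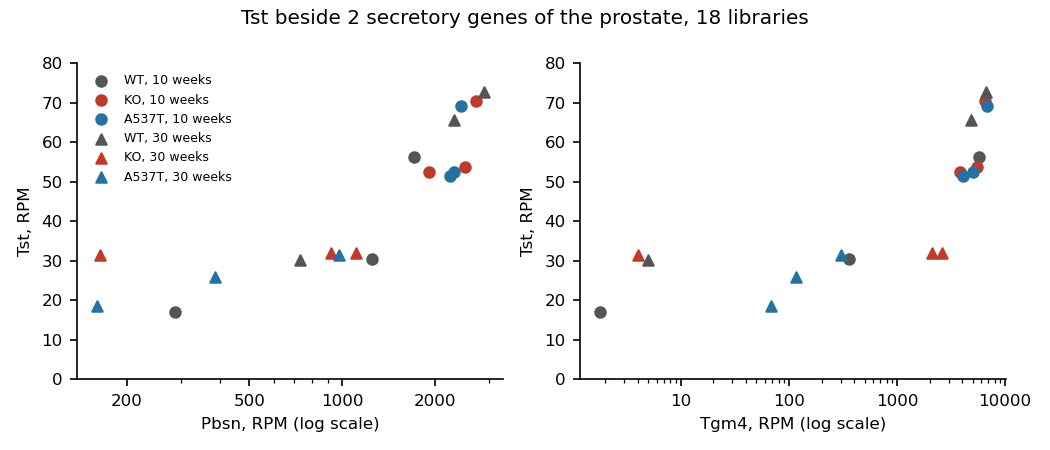
Tst in RPM against Pbsn (left) and Tgm4 (right) in RPM on a log axis, 1 point per library. The 9 libraries with Pbsn above 1500, a limit in a gap of the Pbsn values, had Tst of 51.5 to 72.8. They lay apart from the other 9, at 16.99 to 31.9, and both sets held WT libraries of both ages.

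Mpst, the mercaptopyruvate sulfurtransferase that is the neighbour of Tst in the genome, had log2 fold changes between -0.31 and 0.29. Its normalized count was 119, 121 and 140 in WT and 118, 171 and 111 in KO at 10 weeks (log2 fold change 0.05, SE 0.21, adjusted p = 0.907). In A537T of that age it was 204, 141 and 152 against 127, 126 and 147 (0.29, SE 0.19, adjusted p = 0.766). At 30 weeks the values were -0.19 in KO and -0.31 in A537T, and all groups overlapped. Per length, Tst exceeded Mpst in 16 of the 18 libraries, by a ratio of 1.06 to 3.23, and in 12AF and 8AF the ratio was 0.850 and 0.932.

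Ethe1, the persulfide dioxygenase, was low in all libraries, with 18 to 61 recovered reads. At 30 weeks it was 14.5, 20.7 and 23.8 in WT against 34.4, 16.2 and 39.6 in KO (log2 fold change 0.52, SE 0.41, adjusted p = 0.656) and 27.1, 18.3 and 37.2 in A537T (0.44, SE 0.37, adjusted p = 0.601). The higher values were again those of 4AF, 6AF, 7AF and 9AF, and without these libraries the change was -0.24 in KO and -0.07 in A537T. At 10 weeks it was 0.10 in KO and 0.14 in A537T, with signs that turned on single libraries.

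Cdo1, the cysteine dioxygenase, had the largest fold changes of the 9 genes and the largest spread. At 30 weeks its normalized count was 41.0, 86.4 and 67.3 in WT against 11992 in 4AF, 151 in 5AF and 9327 in 6AF of KO. All KO libraries were above WT, 2 of them by more than 100 times the highest WT library and the other by less than 2 times. The log2 fold change was 5.35 (SE 1.56, unadjusted p = 0.0110, adjusted p = 0.392). In A537T it was 10109 in 7AF, 43.4 in 8AF and 13733 in 9AF against 40.1, 84.9 and 66.3 (4.89, SE 2.03, adjusted p = 0.363), with 8AF inside the WT range. Without 4AF and 6AF the change in KO was 1.27, without 7AF and 9AF that in A537T was -0.48, without 5AF that in KO was 7.39 (adjusted p = 0.000111) and without 8AF that in A537T was 7.57 (adjusted p = 0.000118). DESeq2 gave 6.795 in KO (adjusted p = 0.000136) and, for A537T, 6.97 (adjusted p = 0.000865), and over the 15 alternatives the adjusted p reached 0.873 and 0.968.

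At 10 weeks Cdo1 was 5893, 2326 and 179 in WT and 11970, 9001 and 13145 in KO (log2 fold change 3.06, SE 1.16, adjusted p = 0.231), without overlap. Without 10AF it was 4.12 (adjusted p = 0.0376), and against 12AF as the remaining WT library it was 5.97. The adjusted p reached 0.524 over 15 alternatives. A537T had 710, 614 and 362, between 12AF and 11AF of WT, at a log2 fold change of -1.37 (adjusted p = 0.797) that turned to 1.55 against 12AF alone. The KO libraries of this age held 6.55 to 10.3% of seminal vesicle reads, the WT libraries 4.55, 1.73 and 0.000783%, and the A537T libraries 0.0374 to 0.191%.

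Cdo1 differed between 3 ranges of seminal vesicle reads. It had 271 to 1750 RPM in the 9 libraries with over 1% of these reads, 46.2 to 79.4 in the 3 libraries between 0.01 and 1%, and 4.58 to 18.4 in the 6 libraries under 0.01%, with no overlap between them. Within the lowest range the order did not hold, and 5AF, with 7.13e-05% of such reads, had the highest Cdo1 of the 6, at 18.4 RPM. The lowest of these shares rest on very few reads, since 3 reads were 2.67e-05% of 5AF, so their order says little. Of 9998 genes whose normalized counts averaged 50 or more in every table, those with the log2 level most like that of Cdo1 were the seminal vesicle secretory genes Svs2 (Pearson r = 0.987 over the 18 libraries, as a description) and Pate4 (0.987). The 8 genes of the seminal vesicle list were all counted in every group, and the libraries of 1 group fell on both sides of 1% in WT at 10 weeks and in KO and A537T at 30 weeks. The part of seminal vesicle RNA in the changes of Cdo1 was not tested further than by leaving those libraries out at 30 weeks. At 10 weeks only WT libraries were left out in this way, and the KO libraries, all over 1%, were kept.

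**Figure D4:**
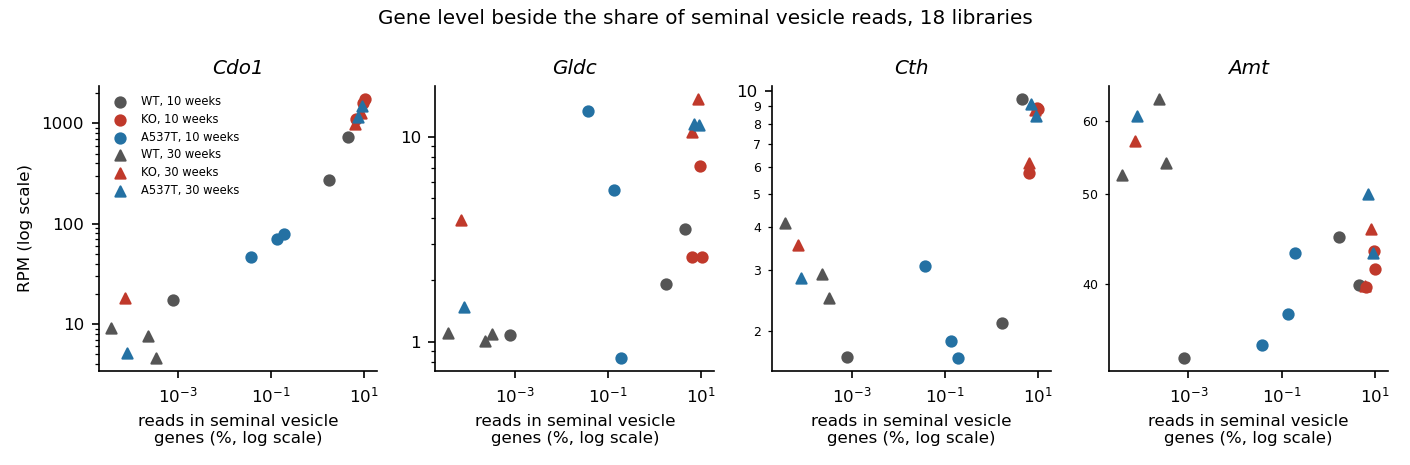
RPM of Cdo1, Gldc, Cth and Amt against the percentage of reads in 8 seminal vesicle genes, both on log axes, 1 point per library. Cdo1 stepped up over the 3 ranges of seminal vesicle reads without overlap, Gldc was high also in 2 A537T libraries of 10 weeks with 0.0374 and 0.136% of such reads, and Amt had both its highest and its lowest value among the 6 libraries with under 0.01%.

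Cth, the cystathionine gamma-lyase, was high in 8 of the 9 libraries with over 1% of seminal vesicle reads. At 30 weeks it was 21.7, 38.0 and 25.7 in WT against 83.6, 29.4 and 58.2 in KO (log2 fold change 0.89, SE 0.42, adjusted p = 0.481) and 80.4, 24.1 and 78.9 in A537T (0.90, SE 0.49, adjusted p = 0.448). Libraries 5AF and 8AF lay within the WT range, and on leaving out the other mutant libraries the change was 0.08 in KO and -0.22 in A537T. Without 8AF it was 1.46 in A537T (adjusted p = 0.0358, from a range of 0.0358 to 0.986). At 10 weeks Cth was 75.3, 17.5 and 17.3 in WT and 66.2, 46.8 and 66.3 in KO (1.02, SE 0.57, adjusted p = 0.349), and without 10AF it was 1.70 (adjusted p = 0.0214, from a range of 0.0214 to 0.680). In A537T it was 14.9, 16.2 and 24.2 (-0.73, SE 0.60, adjusted p = 0.791).

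Cbs, the cystathionine beta-synthase that precedes CTH, varied less. At 10 weeks it was 215, 388 and 147 in WT against 365, 331 and 348 in KO (log2 fold change 0.59, SE 0.33, adjusted p = 0.348) and 227, 216 and 128 in A537T (-0.49, SE 0.38, adjusted p = 0.777), and in KO it passed only against 12AF alone (1.24, adjusted p = 0.00750, from a range of 0.00750 to 0.703 over 15 alternatives). At 30 weeks it was 286, 346 and 418 in WT and 373, 304 and 470 in KO (0.12, SE 0.20, adjusted p = 0.845), and 0.01 in A537T (SE 0.20, adjusted p = 0.992). The groups overlapped in all 4 comparisons. Per length, in WT at 30 weeks Tst had 17.8 ± 7.24 RPKM, Mpst 8.47 ± 1.12, Cbs 5.29 ± 1.06, Cdo1 4.33 ± 1.42, Ethe1 1.47 ± 0.360 and Cth 1.14 ± 0.303 (SD, n = 3), so Cbs, Cdo1 and Mpst stood above Cth by more than these spreads while the libraries of Cbs and Cdo1 overlapped. In KO at 10 weeks Cdo1 had 905 ± 206 RPKM, far above the other members.

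To ask whether the changes differed with age, the log2 change of each gene at 10 weeks was subtracted from that at 30 weeks, and genotype was permuted exactly within each age (400 arrangements, smallest p = 0.005, 2-sided, 18 tests). For Tst the difference was -1.40 in KO (-0.72 against 0.68, exact permutation p = 0.055, adjusted p = 0.414) and for A537T it was -1.88 (-1.10 against 0.78, exact permutation p = 0.025, adjusted p = 0.414). For Gldc the difference was 2.20 in KO (exact permutation p = 0.18, adjusted p = 0.540) and 1.47 in A537T (exact permutation p = 0.395, adjusted p = 0.589). Cdo1 differed by 6.26 in A537T (exact permutation p = 0.09, adjusted p = 0.414) and by 2.29 in KO (exact permutation p = 0.53, adjusted p = 0.678). No gene passed after adjustment, but with a smallest p of 0.005 over 18 tests a single gene could not have passed alone. Mpst, beside Tst, differed by -0.24 in KO and -0.61 in A537T. The 2 lines are not independent here, since they share WT libraries at both ages.

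Partners of these enzymes were taken from 4 lists of 40 genes, of which 34 or 35 were tested in a comparison, and none passed an adjusted p under 0.05. In KO at 10 weeks 4 were higher at an unadjusted p under 0.05 (7.97% of all genes were) and 9 lower (11.5%), and the median log2 fold change was -0.18 against -0.01 for all genes. In A537T at 10 weeks 0 were higher (2.76%) and 3 lower (3.67%), with a median of -0.15 against 0.01. At 30 weeks 0 were higher (5.56%) and 1 lower (5.41%) in KO, at a median of 0.06 against -0.01, and 3 higher (7.35%) and 5 lower (6.28%) in A537T, at a median of 0.07 against -0.01. The median of the 9 genes themselves at 10 weeks was 0.59 in KO and -0.21 in A537T, and at 30 weeks it was 0.12 and 0.01.

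**Figure D5:**
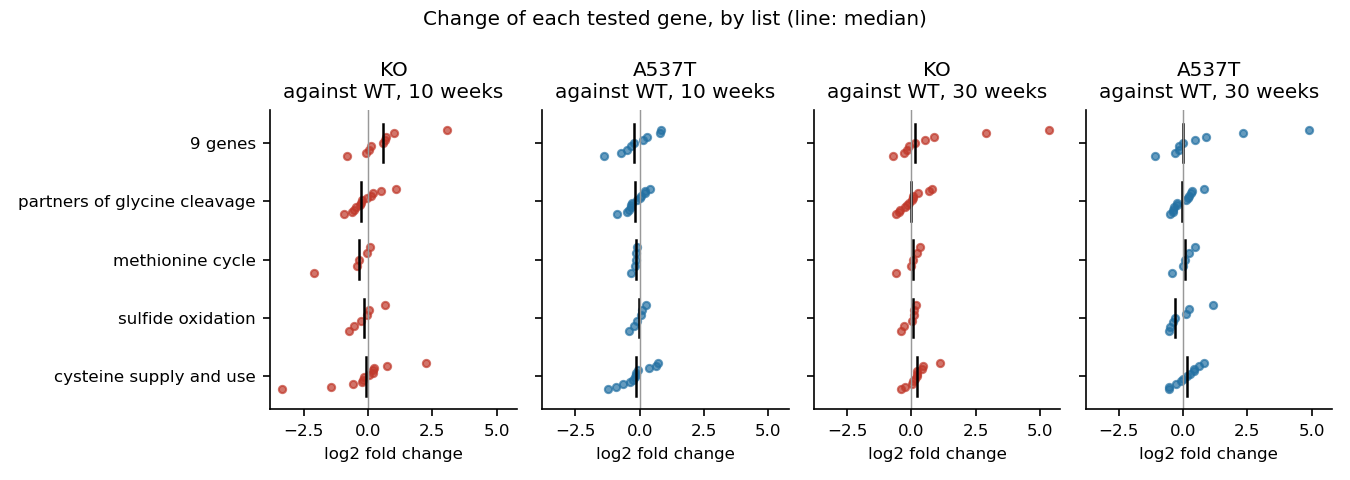
Log2 fold change of each tested gene against WT for the 9 genes and the 4 lists of partners, 1 point per gene and a black line at the median, on a common axis. Among the 9 genes Cdo1 and Gldc lay farthest to the right at 30 weeks, and the medians of the lists lay between -0.33 and 0.20.

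Of the cysteine genes in KO at 10 weeks, Slc7a11, the cystine transporter, had 21.5, 22.5 and 12.2 in WT and 67.9, 118 and 91.5 in KO (log2 fold change 2.25, SE 0.33, adjusted p = 0.183), without overlap. Gclm, the modifier subunit of glutamate-cysteine ligase, had 388, 411 and 322 in WT and 605, 616 and 634 in KO (0.73, SE 0.13, adjusted p = 0.183). Got1, the cytosolic aspartate aminotransferase that also acts on cysteine sulfinate, had 260, 371 and 638 in WT and 148, 164 and 129 in KO (-1.43, SE 0.32, adjusted p = 0.183), with its highest value in 12AF, where muscle reads were highest. Alas1, which uses glycine for haem synthesis, had 433, 526 and 474 in WT and 330, 273 and 318 in KO (-0.64, SE 0.14, adjusted p = 0.183). At 30 weeks the log2 fold change in KO was 0.01 for Slc7a11 and 0.20 for Got1. In A537T Slc7a11 had 0.72 at 10 weeks (adjusted p = 0.749) and -0.56 at 30 weeks (adjusted p = 0.334), without overlap at either age and in opposite directions, and Got1 had -0.91 and 0.0029.

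Of the partners in A537T at 30 weeks, Slc6a6, the taurine transporter, had 557, 414 and 408 in WT and 656, 689 and 733 in A537T (log2 fold change 0.60, SE 0.14, adjusted p = 0.249), where 689 was the value of 8AF. Mtr, the methionine synthase, had 213, 228 and 214 in WT and 327, 262 and 326 in A537T (0.47, SE 0.13, adjusted p = 0.273). The shared subunit of glycine cleavage, Dld, had -0.56 as its log2 fold change in KO at 10 weeks (adjusted p = 0.199) and 0.04 at 30 weeks, and in A537T -0.30 and 0.20. Slc6a9, the glycine transporter, did not overlap with WT in either line at 30 weeks, with log2 fold changes of -0.27 in KO and -0.40 in A537T (adjusted p = 0.459 and adjusted p = 0.295). Suox, the sulfite oxidase downstream of ETHE1, had 0.65 as its log2 fold change in KO at 10 weeks (adjusted p = 0.227) and 0.02 in KO at 30 weeks.

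The genes most like Gldc in log2 RPM over the 18 libraries were Slc35g1 (Pearson r = 0.866), Mgp (0.861), Hnrnph1 (0.850), Zfp760 (0.843) and Cbx5 (0.840). Among those most like Tst were Itpk1 (0.986), Atf6 (0.971), Man1a (0.971) and Tcaf2 (0.961). Likeness was thus closer for Tst and Cdo1 than for Gldc. However, Gldc had only 7 to 118 recovered reads per library, and the part of counting spread in its lower values was not tested. For the other members the closest genes were Scamp1 for Amt (0.942), Kif1b for Gcsh (0.923), Ppfibp1 for Cth (0.935), Aqp1 for Ethe1 (0.920), Acsl4 for Cbs (0.893) and Arfgef1 for Mpst (0.834). These values describe libraries that share depth, tissue make-up and group, and no test was made of them.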

How the data were processed

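Total RNA libraries of 18 prostates were analysed here, and microRNA, TRAMP and protein data were not. The authors trimmed the reads with Trim Galore 0.4.1 and cutadapt 1.18, aligned them with STAR 2.7.3a to GRCm38.p6, quantified them by strand with Salmon and imported gene counts. As deposited by the authors, the signal values are these counts over the size factor that DESeq2 1.26 gave each library. They stand in 4 tables of 6 libraries, 3 of a mutant and 3 of WT at 1 age. Tables of the authors' own fold changes and s-values were not used. The columns carry library names without genotype or replicate. Columns found in both tables of 1 age were taken as WT and the others as the mutant of the table.

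The members and lists were chosen with earlier results of these data known. Dividing normalized counts by the value of 1 read gave whole reads (within 0.1) for 99.98% of values or more. For 4 columns the size factor is so near 1 that these steps cannot be told from rounding. Without version numbers, 55107 of 55469 gene IDs matched the annotation (GENCODE vM21). Each mutant group was compared with limma 3.58.1 in R 4.3.3 (lmFit, eBayes with a mean trend) on log2(normalized count + 1) over genes with a mean of at least 10, a scale that understates changes of low genes, and p was adjusted by Benjamini-Hochberg at a threshold of 0.05. The script was tested on simulated data. The labels do not say how mice were paired, and the p-values measure the spread between these libraries.

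The alternatives were pseudocount 8, minimum means of 1 and 100, scaling to the same total with and without marker genes, no mean trend, edgeR 4.0.16 and DESeq2 1.42.0 on recovered reads, leaving out each library, and leaving out the seminal vesicle libraries of a group. Leaving out 10AF and 11AF was chosen after seeing the data. It kept the KO libraries of 10 weeks, with 6.55 to 10.3% of seminal vesicle reads, against 12AF alone, with 0.000783%. It thus did not remove the difference in these reads. Named in the text are the 9 members, Elac2, partners with an unadjusted p under 0.01 and a mean of at least 50, and for Gldc and Tst the 5 most alike genes (1 for other members), of which 1 is not reported here. Pbsn is from the marker lists, and its limit of 1500 RPM was not among the planned settings. Pate4 beside Svs2, Gm43314, Tgm4, Dld, Slc6a9, Suox, Shmt2, Shmt1, Gnmt and Bhmt fall outside this rule and were named after their values were seen. Python 3.11.15 was used for levels and permutations.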

Additional observations from a re-analysis of the deposited data

How the results depend on the processing

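Of 528 results for the 9 genes under the alternatives, 481 kept their direction and their side of the threshold, 19 newly passed it and 28 changed sign; the cause was not tested. limma called 0 genes in each comparison, and edgeR called none of the 9. For KO, DESeq2 called 715 genes at 10 weeks and 285 at 30 weeks, with 2 of the 9 among the latter. For A537T its counts were 90 and 476, the second with 3 of the 9. At 10 weeks limma without a mean trend called 1 gene for KO and 2 for A537T, and a minimum mean normalized count of 1 gave 2 calls for A537T. Without 10AF and 11AF, an alternative chosen after seeing the data for this age, limma called 3357 genes for KO (5 of the 9) and 569 for A537T (1 of the 9), with 1 WT library left that was assumed to vary like the others. Leaving out 7AF and 9AF gave 1 called gene for A537T at 30 weeks. When each library was left out in turn at 10 weeks, KO had 0 to 2886 called genes (0 to 3 of the 9) and A537T had 0 to 50, with both maxima reached without 10AF. At 30 weeks KO had 0 to 944 (0 to 2 of the 9), with its maximum without 5AF, and A537T had 0 to 1224 (0 to 3 of the 9), with its maximum without 8AF.

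Signs changed for log2 fold changes of small size or where libraries rich in seminal vesicle reads were left out. Amt in KO at 10 weeks came to 0.12 after scaling to equal totals and 0.18 when the marker genes were kept out of those totals, and its difference between ages in A537T came to -0.064 after the first of these. Without 10AF and 11AF, KO gave -0.10 for Mpst and -0.18 for Ethe1, and A537T gave 1.55 for Cdo1, 0.16 for Cbs and -0.14 for Ethe1. Without 4AF and 6AF, KO at 30 weeks gave 0.22 for Gcsh, 0.023 for Mpst, -0.19 for Cbs and -0.24 for Ethe1. Without 7AF and 9AF, A537T at 30 weeks gave 0.031 for Amt, 0.25 for Mpst, -0.48 for Cdo1, -0.22 for Cth and -0.066 for Ethe1. With 1 library left out at a time, the values at 10 weeks ran from -0.14 to 0.17 for Mpst in KO, from -0.068 to 0.24 for Ethe1 in KO and from -0.12 to 0.39 for Ethe1 in A537T. At 30 weeks they ran from -0.26 to 0.084 for Gcsh and from -0.039 to 0.27 for Cbs in KO, and from -0.32 to 0.0065 for Gcsh and from -0.17 to 0.14 for Cbs in A537T. The differences between ages ran from -0.81 to 0.28 for Cth in KO, from -0.078 to 0.18 for Amt in A537T and from -0.12 to 0.38 for Gcsh in A537T.

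No paired analysis was possible because the columns carry no replicate number. With 3 libraries a group the p-values measure the spread between these libraries, and at the read totals given above a difference in Gldc, Cdo1 or Cth rests on few reads in the low libraries.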

Other observations

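Serine hydroxymethyltransferases supply and use the same folate-bound carbon as glycine cleavage. The mitochondrial form, Shmt2, chosen after the values were seen, had 23.3 to 62.0 RPM in the 9 libraries with over 1% of seminal vesicle reads, 15.96 to 19.7 in the 3 libraries between 0.01 and 1% and 11.2 to 20.0 in the 6 libraries under 0.01%. Its log2 fold change was 1.09 in KO at 10 weeks (adjusted p = 0.185 from limma), -0.34 in A537T of that age, and at the later age 0.69 for KO and 0.83 for A537T. The cytosolic form, Shmt1, had log2 fold changes of -0.03 in KO and 0.07 in the A537T line at 10 weeks. At 30 weeks they were -0.44 and -0.35. Gnmt, which methylates glycine, had -0.48 in KO at 10 weeks (adjusted p = 0.244 from limma) and -0.0012 in the A537T line (adjusted p = 0.999). At 30 weeks it had -0.58 in KO and -0.53 in A537T (adjusted p = 0.429 and adjusted p = 0.516). Gclm had 46.4 to 84.5 RPM in the libraries with over 1% of seminal vesicle reads and 29.9 to 48.4 in the 6 with under 0.01%. Bhmt, which methylates homocysteine, was too low to be tested, with 0.586 to 2.06 RPM in the libraries with over 1% and no more than 0.357 in the others.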
